A study of Homo sapiens with 18 samples.

Results

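The genes described here carry the names of cytosolic ribosomal proteins or of their paralogs, such as RPL7L1. A name alone does not show that the product is part of the ribosome. They were chosen by symbol from the table of counts: names of the RPL and RPS series, the acidic stalk proteins RPLP0 to RPLP2 and RPSA, without pseudogenes, S6 kinases and Y-linked forms, and with a mean of at least 10 CPM (counts scaled to library size) over all libraries. Of 28395 genes in the table, 86 rows matched the names, 2 of them were Y-linked and 78 were kept. By name, 48 belong to the large (60S) and 30 to the small (40S) subunit. All 78 passed the filter on low counts used for testing. The members nearest the limit were RPS27 at a mean of 10.9 CPM, RPL22L1 at 16.2 CPM and RPL26L1 at 16.3 CPM, and the nearest genes left out were RPS10 at 7.08 CPM, RPS26 at 3.89 CPM and RPL21 at 3.54 CPM.

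RNA was sequenced in 18 libraries, 9 groups of 2, from the established human lines H929, MM1S and OPM2, all derived from multiple myeloma. In each line, cells with a CRISPR-Cas9 knockout of IKZF1 (Ikaros), whose guide RNA is switched on by doxycycline at 1 µg/mL, were set against cells with an empty vector that also received doxycycline. OPM2 had in addition a knockout of IKZF3 (Aiolos) made in the same way, cells given lenalidomide at 10 µM, and untreated control cells whose labels name no vector and no doxycycline. Cells were cultured for 72 h and live cells were sorted by light scatter before RNA was taken. The labels do not say whether the libraries of a group came from separate cultures or clones, so the p-values measure the spread between these libraries, which may be technical.

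Each ribosome carries a single copy of nearly every ribosomal protein, apart from the stalk proteins RPLP1 and RPLP2, and a growing cell devotes much of its mRNA to them. Most of these mRNAs begin with a 5′ terminal oligopyrimidine (TOP) tract, a run of C and T letters at the start site through which mTOR signalling and LARP1 control their translation and stability. Plasma cells and myeloma cells make large amounts of secreted protein and depend on high translation, and MYC, a driver in myeloma, raises transcription of ribosome genes. Lenalidomide directs IKZF1 and IKZF3 to degradation through cereblon.

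The start sites show what the genes share in sequence. RefSeq (GRCh38.p14) gave a promoter window for 62 of the 78 members. A run of at least 8 C or T letters that holds the annotated start base stood in 38 of the 62 (61.3%), against 5.37% of the windows of tested genes and 4.80% of all 27305 windows. Counted more loosely, as a run that touches the 5 bases before the start or the first 5 from it, a run of at least 8 stood in 42 of the 62 (67.7%), against 10.95% of all, and some of these lie wholly before or after the start base. The windows below hold the 15 bases before the start and the 15 from it, 5′ to 3′ along the gene, so that the start is the first base after the 15. Capitals mark the longest C or T run by the looser count, which in RPL15, RPL7L1, RPS27L and RPL26L1 ends before the start base. The first 7 carry a long run and belong to members described in the comparisons. The other 5 carry a short one, and are RPL3 and RPL15, which were called lower under lenalidomide, and the 3 members that changed least. The choice shown does not stand for all members called lower under lenalidomide. By the looser count 2 of those, RPL14 and RPS18, had runs of 14 and 11 letters and are not printed, and 6 had fewer than 8. Runs were read at the annotated start, which was C or T in 47 of the 62 members, against 22.6% of all windows. A short run there does not show that a gene lacks a TOP tract.
RPLP0, chr12:120201097-120201126, minus strand: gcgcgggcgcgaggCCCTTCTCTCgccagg
RPLP2, chr11:809952-809981, plus strand: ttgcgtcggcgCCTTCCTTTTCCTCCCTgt
RPS6, chr9:19380222-19380251, minus strand: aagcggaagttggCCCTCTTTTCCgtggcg
RPL35A, chr3:197950175-197950204, plus strand: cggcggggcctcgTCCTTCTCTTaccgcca
RPS7, chr2:3575245-3575274, plus strand: gtttccgCCCTCCTCCTCgcgctgtttccg
RPL22, chr1:6199581-6199610, minus strand: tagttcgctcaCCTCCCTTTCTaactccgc
RPL22L1, chr3:170870181-170870210, minus strand: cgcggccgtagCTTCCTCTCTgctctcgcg
RPL3, chr22:39319609-39319638, minus strand: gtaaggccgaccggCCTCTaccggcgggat
RPL15, chr3:23916530-23916559, plus strand: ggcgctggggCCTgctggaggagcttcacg
RPL7L1, chr6:42879601-42879630, plus strand: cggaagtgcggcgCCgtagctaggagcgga
RPS27L, chr15:63157463-63157492, minus strand: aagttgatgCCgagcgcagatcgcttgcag
RPL26L1, chr5:172958714-172958743, plus strand: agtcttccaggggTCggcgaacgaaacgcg

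The run was 17 letters long in RPLP2 and 10 in RPLP0 and RPL35A, and 5 in RPL3 and 2 in the paralogs RPL7L1, RPS27L and RPL26L1. Letters were searched on both strands of the full windows, which are longer than the stretches printed above and whose length is not stated here. None of the letters searched contains another. CCGGAA (the core bound by ETS factors) stood in 53.2% of the members, against 28.9% of the windows of tested genes and 17.6% of all. TGGGAA, the core letters of Ikaros binding, stood in 24.2% of the members, 21.6% of tested genes and 24.3% of all windows. CACGTG, the E-box of MYC, stood in 6.45% of the members, 10.07% of tested genes and 7.43% of all. GGGCGG, the GC box, stood in 53.2% of the members, below the 68.5% of tested genes and above the 44.6% of all. AAGATGG, the core of YY1 sites, stood in 12.9% of the members, 7.41% of tested genes and 6.06% of all. A match to letters is a description of these windows and not a bound site.

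Together the 78 genes took between 3.25% and 8.03% of a library's counts, with a median of 4.03%. The share was 5.58% and 5.96% in the H929 empty vector libraries and 4.90% and 5.21% after IKZF1 knockout. In MM1S it was lower, 3.47% and 3.25% with empty vector and 3.47% and 3.69% after knockout. In OPM2 the untreated libraries stood at 4.50% and 4.03%, the IKZF1 knockout at 3.76% and 4.03%, the IKZF3 knockout at 3.95% and 4.12%, and lenalidomide at 3.26% and 3.35%. The OPM2 empty vector libraries stood apart, at 8.03% in replicate 1 and 5.31% in replicate 2. The ratio of 60S to 40S counts hardly moved, from 1.31 to 1.39 over the 18 libraries. A share of counts is relative: fewer transcripts of these genes and more transcripts of others cannot be told apart, nor can fewer expressing cells and less RNA per cell.

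**Figure D1:**
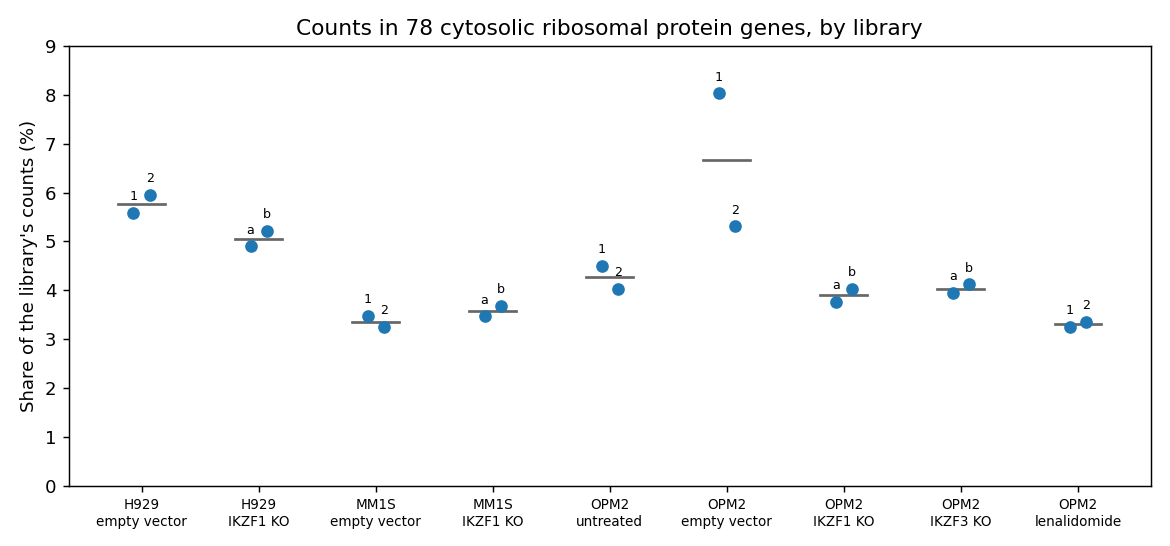
Share of each library's counts (%, vertical axis) in the 78 ribosomal protein genes, by group. Points are single libraries with their replicate number or letter and bars are means of 2. OPM2 empty vector replicate 1 is highest at 8.03% and the lenalidomide libraries are the lowest of OPM2 at 3.26% and 3.35%.

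Per length of transcript, levels come from the authors' deposited table of log2 FPKM. In untreated OPM2 the highest members there were RPLP2 at 11.23, RPLP1 at 11.003 and RPS6 at 10.84 on the log2 FPKM scale, that is, a pair of stalk proteins that recruit elongation factors and the substrate of S6 kinases. The lowest were the paralogs RPL22L1 at 2.48 and RPL26L1 at 3.30, with RPL17 at 3.53 and RPL7L1 at 4.34. In the same table RPLP1 led in both MM1S (11.23) and H929 (11.76) empty vector cells, and RPL22L1 was lowest in both (3.02 and 3.57). Processed pseudogenes are many in this family, up to 91 named copies for RPL23A, 74 for RPSA and 61 for RPL7, and the sources used here do not say how reads matching several places were counted. Levels between members are therefore uncertain.

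Library depth was 11.8 to 24.19 M counts. Transcripts of the targeted genes did not check the knockout labels, since IKZF1 stood at 124.3 to 332.6 CPM in the IKZF1 knockout libraries of the 3 lines and at 94.34 to 188.1 CPM with empty vector, and IKZF3 at 69.35 and 66.64 CPM in the IKZF3 knockout and 44.05 and 50.34 CPM in its empty vector. The 10 plasma cell markers (among them SDC1, CD38, XBP1 and IRF4) summed to 7837 to 23890 CPM with none at 0 in any group. The T cell list, led by CD3E, reached 42.1 CPM in H929 and at most 0.588 CPM in OPM2. Erythroid markers, all HBB in OPM2, were highest in OPM2 empty vector at 10.3 and 18.6 CPM and stood between 3.4 and 10.6 CPM in the other OPM2 groups, and the part of these transcripts in the results below was not tested. Myeloid and stromal lists stayed at or under 2.57 CPM, and the epithelial list reached 34.4 CPM in H929, with KRT8, KRT18 and EPCAM all at 0 in OPM2 empty vector.

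Against the empty vector, nearly all ribosomal protein genes were lower in both OPM2 knockouts. RPLP2 had 3368 and 1723 CPM in empty vector, 1105 and 1206 CPM in the IKZF1 knockout and 1228 and 1291 CPM in the IKZF3 knockout. RPLP0, the scaffold of the stalk, had 3410 and 2095 CPM in empty vector, 1587 and 1696 CPM in the IKZF1 knockout and 1723 and 1736 CPM in the IKZF3 knockout. Both genes were lower in all 4 knockout libraries than in either empty vector library, and replicate 1 of the vector was far above replicate 2. For RPLP2 the log2 fold change was -1.14 ± 0.21 (SE) with IKZF1 knockout (adjusted p = 0.00148, edgeR's quasi-likelihood method) and -1.01 ± 0.21 with IKZF3 knockout (adjusted p = 0.00241, edgeR).

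Over the list, 77 of 78 members were called lower in each knockout and none higher, where a call is an adjusted p below 0.05 over all 14522 genes tested. Of all genes, 20.1% were called lower with IKZF1 knockout and 20.7% with IKZF3 knockout, and 16.2% were called higher in each. Both knockout libraries lay below both vector libraries for 78 members with IKZF1 knockout and 77 with IKZF3 knockout, and above both for none, where 31.8% and 33% of all genes lay below and 27.8% and 27.4% above. The median log2 fold change of the members was -0.93 with IKZF1 knockout and -0.89 with IKZF3 knockout, against 0.00 and -0.03 over all genes tested. RPL7L1, a homologue of RPL7, was the exception in both, at -0.18 ± 0.11 and -0.28 ± 0.11. The lowest values belonged to RPS29 (-1.55 ± 0.40), RPL36 (-1.42 ± 0.24) and RPS21 (-1.35 ± 0.25) with IKZF1 knockout and to RPS29 (-1.47 ± 0.40), RPL38 (-1.40 ± 0.22) and RPL36 (-1.38 ± 0.24) with IKZF3 knockout. After RPL7L1, the smallest changes were those of RPL15 (-0.50 ± 0.14) and RPL23A (-0.53 ± 0.16) with IKZF1 knockout, and of RPL15 (-0.42 ± 0.14) and RPL7 (-0.56 ± 0.13) with IKZF3 knockout.

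Members with roles outside translation or with links to disease followed the same pattern. RPL5 and RPL11, which with the smallest rRNA can bind MDM2, were at -0.82 ± 0.13 and -1.03 ± 0.18 with IKZF1 knockout. RPS27A, made as a fusion with ubiquitin, was at -0.93 ± 0.19, and RPSA, also known as a laminin receptor, at -0.84 ± 0.19. RPS14 and RPS19, whose loss is linked to bone marrow failure, were at -1.13 ± 0.20 and -1.05 ± 0.22, and RPL10, which is mutated in some leukaemias, at -0.82 ± 0.18.

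The size of these changes moved with 1 library. All but 1 of the 78 members were higher in OPM2 empty vector replicate 1 than in replicate 2, by a median of 0.74 on the log2 scale, with a range of -0.01 to 1.07. Of all tested genes, 48.1% were higher in replicate 1, with a median of 0. Without replicate 1, the median of the members was -0.48 with IKZF1 knockout and -0.44 with IKZF3 knockout. The empty vector was then a single library, whose spread cannot enter that fit, so only effect sizes are given. RPLP2 was then at -0.54 and -0.42, and RPS29 at -0.93 and -0.84. When the compared libraries were fitted alone, no member was called in either comparison by edgeR.

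Against untreated OPM2 cells, the same knockout libraries showed little change in these genes. RPLP2 had 1259 and 1141 CPM in untreated cells, and the 4 knockout libraries, at 1105 to 1291 CPM, lay on both sides of these values. RPS6 had 1524 and 1434 CPM in untreated cells, 1299 and 1321 CPM in the IKZF1 knockout and 1485 and 1484 CPM in the IKZF3 knockout. The IKZF1 knockout was below untreated for RPS6, and the IKZF3 knockout lay between the untreated libraries. No member was called with either knockout, against 4.08% of all genes higher and 3.7% lower with IKZF1 knockout and 3.75% higher and 4.54% lower with IKZF3 knockout (7.78% and 8.3% either way). DESeq2 called 0 and 0 members. At an unadjusted p under 0.05, edgeR's test gave 1 member higher and 2 lower with IKZF1 knockout, and 0 higher and 3 lower with IKZF3 knockout.

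The median log2 fold change against untreated cells was -0.12 with IKZF1 knockout (range -0.39 to 0.42) and -0.05 with IKZF3 knockout (range -0.49 to 0.28). Both IKZF1 knockout libraries were below both untreated libraries for 29 members and above both for 6, where 30% and 29.6% of all genes did so. For the IKZF3 knockout the counts were 26 and 5, against 31.6% and 30.4% of all genes. RPS2, near the mRNA entry of the small subunit, was lowest in both, at -0.39 ± 0.22 and -0.49 ± 0.22, followed by RPS3 (-0.36 ± 0.20) and RPL13 (-0.36 ± 0.21) with IKZF1 knockout and by RPL3 (-0.39 ± 0.16) and RPL39L (-0.34 ± 0.21) with IKZF3 knockout. The paralog RPL22L1 was highest in both, at 0.42 ± 0.22 and 0.28 ± 0.22, with RPL26L1 (0.25 ± 0.16) and RPS27L (0.24 ± 0.15) next with IKZF1 knockout, and RPL26L1 stood at 0.18 ± 0.15 with IKZF3 knockout.

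The spread of the OPM2 empty vector pair enters the shared error of these tests. Without both of its libraries, 15 members were called lower with IKZF1 knockout (10.1% of all genes lower) and 9 with IKZF3 knockout (11.4% of all genes), and none higher. Leaving out replicate 1 alone gave 15 and 9, and leaving out replicate 2 alone 14 and 8. In the fit without the pair, RPS2 was at -0.39 ± 0.11 (adjusted p = 0.0248, edgeR) and -0.50 ± 0.11 (adjusted p = 0.00589, edgeR), and RPL3, at the peptidyl transferase centre, at -0.35 ± 0.08 and -0.40 ± 0.08. The knockout groups differed little from each other: no member was called between IKZF1 and IKZF3 knockout, against 1.71% of all genes higher and 0.888% lower (2.6% either way), DESeq2 called 0, and no member had an unadjusted p under 0.05 in edgeR's test. Both IKZF1 libraries were above both IKZF3 libraries for 5 members and below both for 22, against 23.7% and 23.6% of all genes. The median was -0.07, with RPL41 (-0.26 ± 0.22), RPL13 (-0.25 ± 0.21) and RPS4X (-0.23 ± 0.14) lowest and RPL23A (0.28 ± 0.16), RPL23 (0.17 ± 0.16) and RPL22L1 (0.14 ± 0.21) highest. Without replicate 1, replicate 2 or both libraries of the empty vector, 1 member was called, RPL23A, at 0.28 ± 0.08 without both (adjusted p = 0.0292, edgeR).

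**Figure D2:**
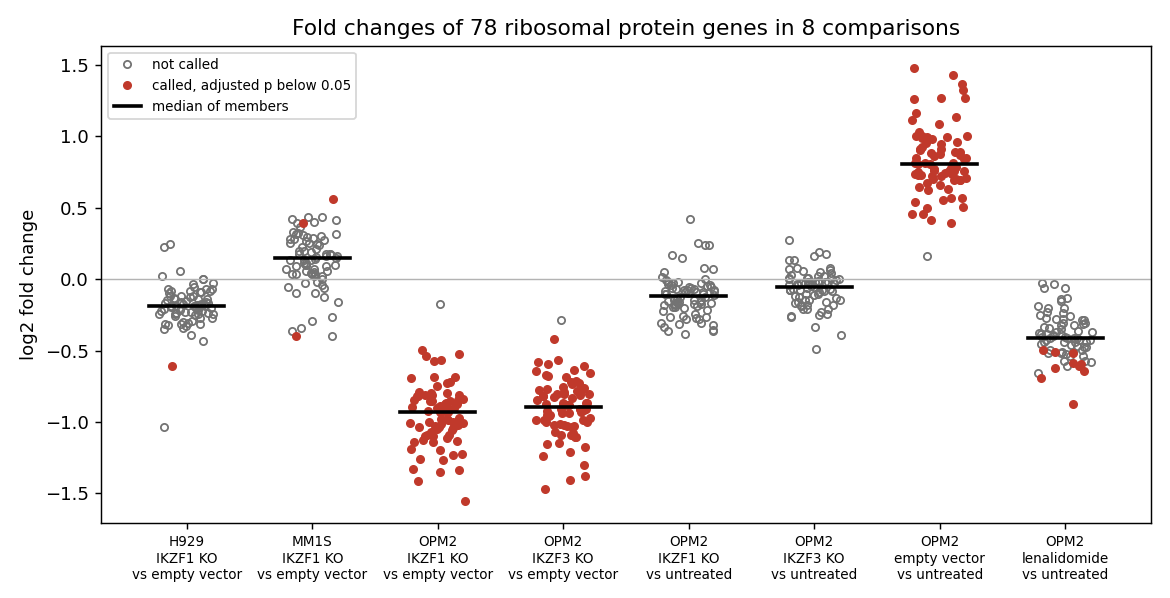
Log2 fold change (vertical axis) of each of the 78 ribosomal protein genes in 8 comparisons, with filled points for genes called at an adjusted p below 0.05, open points for the rest and bars for medians. Both OPM2 knockouts lie near -0.9 against empty vector and near 0 against untreated cells, and the empty vector itself lies near 0.8 against untreated cells.

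The controls of OPM2 were set against each other directly. RPL36 had 367.1 and 289.4 CPM in untreated cells and 1137 and 559.5 CPM in empty vector. RPS29 had 65.34 and 42.52 CPM in untreated cells and 202.8 and 100.1 CPM in empty vector. Both were higher in each empty vector library than in either untreated one. In all, 77 of 78 members were called higher in empty vector and none lower, against 19.5% and 15.9% of all genes (35.4% either way), with a median of 0.81. Both vector libraries were above both untreated ones for 75 members and below both for none, against 31.5% and 32% of all genes. The highest were RPS29 (1.48 ± 0.40), RPL22L1 (1.43 ± 0.21) and RPL36 (1.37 ± 0.24), and the lowest RPL15 (0.16 ± 0.14, not called), RPL22 (0.39 ± 0.11) and RPL7L1 (0.41 ± 0.11).

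Without empty vector replicate 1, the median was 0.34. The empty vector was then a single library, whose spread cannot enter that fit. RPLP2 kept 0.49 without replicate 1, while RPLP0 went to 0.07 and RPL3 to 0.07. With the 4 compared libraries fitted alone, no member was called by edgeR. The labels name a vector and doxycycline for the empty vector cells and neither for the untreated cells. The vector and the doxycycline therefore cannot be told apart in this comparison.

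The heat map of OPM2 libraries shows the same order gene by gene. Replicate 1 of the empty vector was the highest of the 10 OPM2 libraries for 77 members and replicate 2 for the remaining one, RPL7L1. The lenalidomide libraries were the lowest for 75 members, 58 in replicate 1 and 17 in replicate 2. The shares of all genes highest or lowest in these libraries were not counted.

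**Figure D3:**
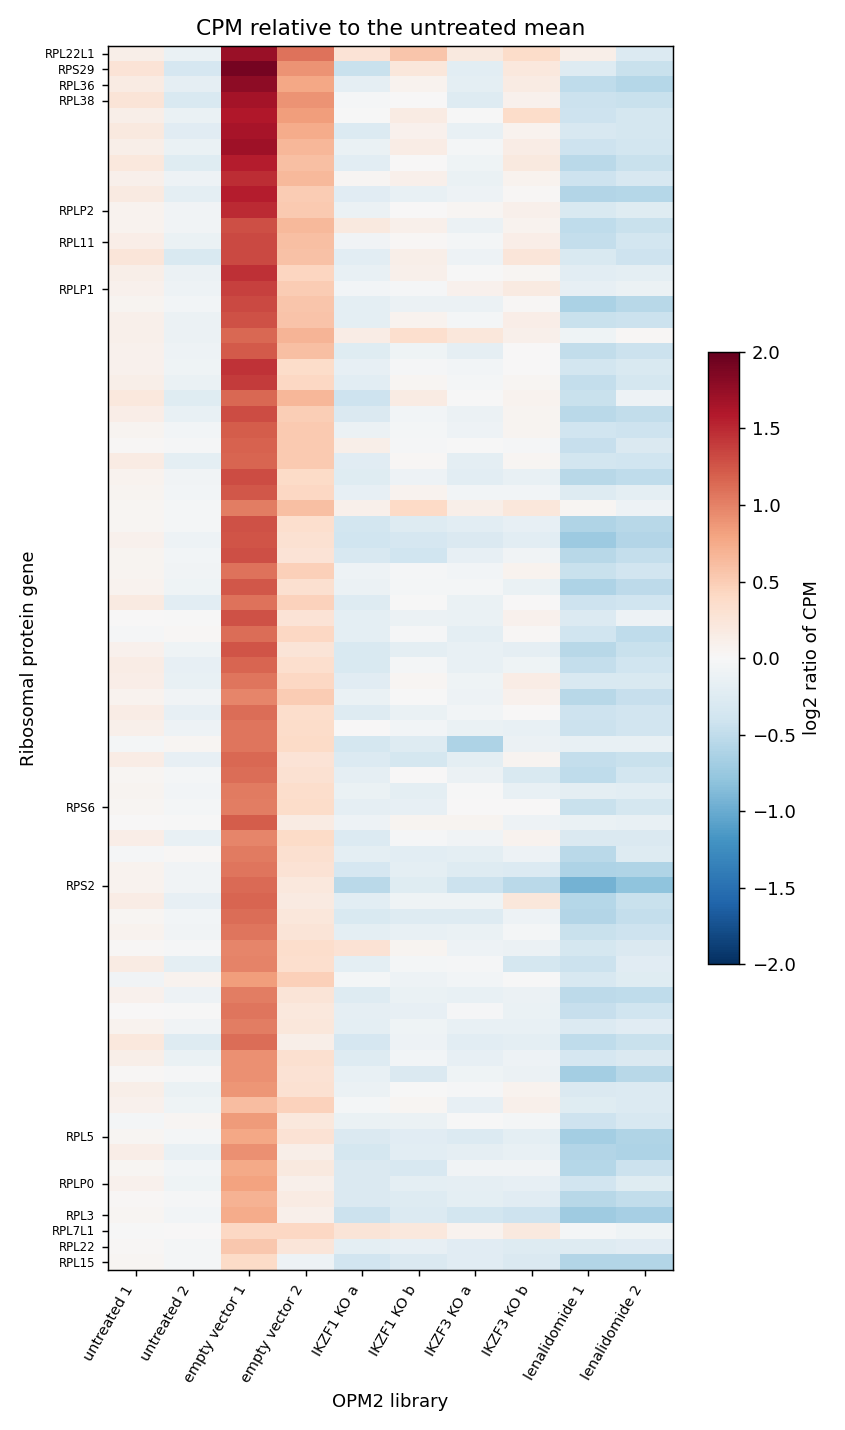
Log2 ratio of CPM to the mean of the untreated libraries (colour, from -2 to 2) for each ribosomal protein gene (rows, ordered by the empty vector mean, with a few genes of the text labelled) in each OPM2 library (columns). Empty vector replicate 1 is red in nearly every row, replicate 2 is paler, the knockouts are near 0 and the lenalidomide libraries are pale blue, deepest for RPS2.

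Length of transcript moved with the empty vector values. Members are short, with a median transcript length of 764 nt (359 to 4123 nt), against 2578 nt over all tested genes with a length. Among other genes, the log2 ratio of empty vector replicate 1 to replicate 2 had a median of 0.49 under 1000 nt, 0.24 from 1000 to under 2000 nt, -0.01 from 2000 to under 4000 nt and -0.44 at 4000 nt or more. Ribosomal protein genes under 1000 nt, 59 in number, had a median of 0.77 on that ratio. Empty vector against untreated cells gave 0.55, 0.27, -0.02 and -0.43 for other genes in the same order of length, and 0.85 and 0.73 for members of the shorter lengths. Across the 78 members, length and the change from untreated to empty vector had a Pearson's r of -0.43 and a Spearman's rho of -0.52, a description only, since all points come from the same 4 libraries. The part of transcript length in the empty vector values was not tested.

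**Figure D4:**
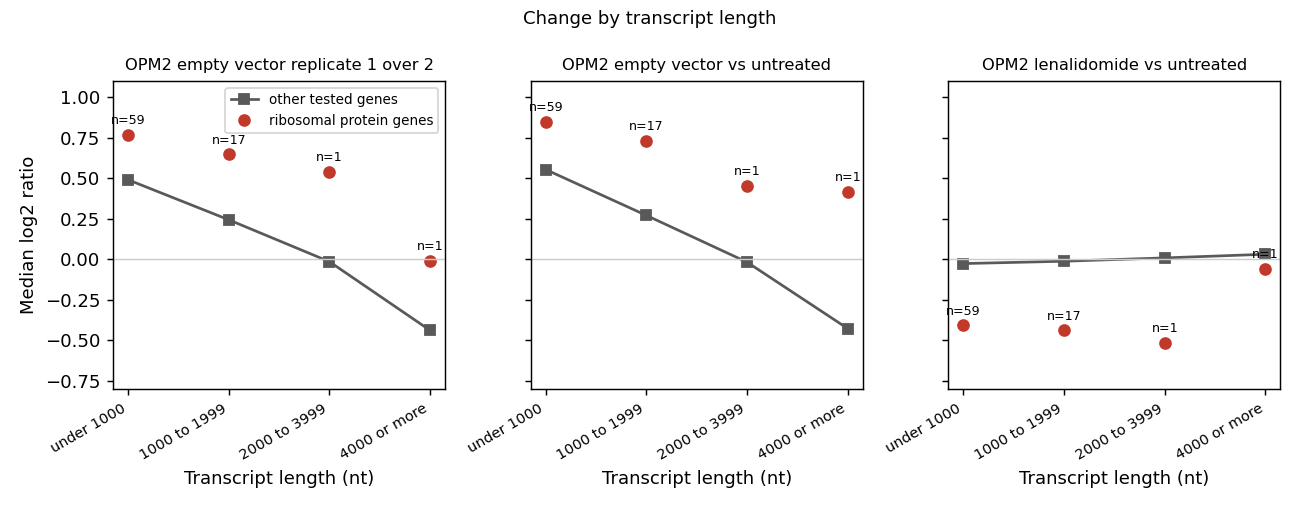
Median log2 ratio (vertical axis) by transcript length in nt (horizontal axis) for other tested genes (squares) and ribosomal protein genes (circles, with their number). In the first and second panels other genes fall from about 0.5 to -0.4 as length grows, and in the lenalidomide panel other genes stay near 0 while members under 1000 nt lie at -0.41.

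Lenalidomide lowered part of the set, and every member had a negative value. RPS2 had 341.6 and 311.3 CPM in untreated OPM2 cells and 170.0 and 186.8 CPM with the drug. RPL3 had 1602 and 1500 CPM in untreated cells and 945.3 and 976.7 CPM with the drug. RPL5 had 877.2 and 833.7 CPM in untreated cells and 533.9 and 561.3 CPM with the drug. For all 3 genes both treated libraries lay well below both untreated ones. The log2 fold changes were -0.87 ± 0.22 for RPS2 (adjusted p = 0.0191), -0.69 ± 0.16 for RPL3 (adjusted p = 0.0118) and -0.64 ± 0.13 for RPL5 (adjusted p = 0.00555), each by edgeR.

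Of the 78 members, 10 were called lower and none higher, against 4.59% and 5.78% of all genes (10.4% either way). The others called were RPL12, RPL14, RPL15, RPL4 and RPL6 of the large subunit and RPS18 and RPS4X of the small, from -0.62 ± 0.15 for RPL12 to -0.50 ± 0.14 for RPS4X. RPS3, the third lowest member, missed the threshold at -0.65 ± 0.21 (adjusted p = 0.0579, edgeR), as did RPL13A at -0.61 ± 0.19 (adjusted p = 0.0518, edgeR). Both treated libraries were below both untreated ones for 73 members, where 32.5% of all genes were, and above both for none. The median was -0.41 (range -0.87 to -0.03), against 0.00 over all genes, at -0.44 for 60S and -0.38 for 40S members. RPL26L1 (-0.03 ± 0.16), RPS27L (-0.03 ± 0.15) and RPL7L1 (-0.06 ± 0.11) were the highest.

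The stalk genes had smaller values. RPLP0 had 2052 and 1833 CPM in untreated cells and 1495 and 1649 CPM with lenalidomide, RPLP1 1092 and 960.9 against 920.2 and 951.2 CPM, and RPLP2 1259 and 1141 against 969.6 and 1014 CPM. None of the 3 was called, at -0.31 ± 0.17, -0.13 ± 0.19 and -0.27 ± 0.20, although the groups did not overlap for any of them. RPS6 was at -0.40 ± 0.15, RPL11 at -0.42 ± 0.18, RPS14 at -0.51 ± 0.20, RPSA at -0.44 ± 0.19 and RPS19 at -0.20 ± 0.22, and none of these was called.

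The number called under lenalidomide depended on which libraries entered the fit. Leaving out any 1 lenalidomide or untreated library left that group with a single library, and fewer members were called than in the main fit. The share of all genes called in those fits is not given. Leaving out both OPM2 empty vector libraries, which belong to neither group, gave 58 lower and none higher. In that fit 11.3% of all genes were called lower, against 4.59% in the main fit. In the fit without both, the median was -0.42, RPS2 was at -0.88 ± 0.12 (adjusted p = 5.57e-05, edgeR) and RPL5 at -0.65 ± 0.07 (adjusted p = 3e-06, edgeR). RPS6 (-0.41 ± 0.07, adjusted p = 0.000498), RPSA (-0.45 ± 0.09), RPL11 (-0.43 ± 0.09) and RPLP0 (-0.31 ± 0.09) were then called by edgeR, and RPLP1 (-0.14 ± 0.07), RPS27A (-0.24 ± 0.08) and RPS19 (-0.21 ± 0.09) were not.

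Length did not move with the lenalidomide values as it did with those of the empty vector. Other genes had medians between -0.03 and 0.03 in the 4 length classes, while members had -0.41 under 1000 nt and -0.44 from 1000 to under 2000 nt. Across the 78 members, length against the lenalidomide change gave a Pearson's r of 0.09 and a Spearman's rho of -0.14. By the looser count of C or T runs, the median was -0.41 in the 42 members with at least 8 letters, of which 2 were called lower, and -0.44 in the 20 with fewer, of which 6 were called lower. The difference between them was not tested, and a short run at the annotated start does not show that a member lacks a TOP tract.

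Related genes were read beside the ribosomal protein genes under lenalidomide, where 4.59% of all genes were called lower and 5.78% higher. Of 20 other mRNAs with a TOP tract, 12 were called lower and none higher (median -0.47), among them EEF2, the translocation factor (-0.96 ± 0.13, adjusted p = 0.000251, edgeR), and EIF2S3, a subunit of the initiator tRNA carrier (-0.64 ± 0.10). Of 10 snoRNA host RNAs, 3 were lower, led by SNHG8 (-0.86 ± 0.22) and GAS5 (-0.68 ± 0.18). RACK1, a small subunit protein outside the RPL and RPS names, was lower (-0.80 ± 0.16), while FAU and RPL36AL were not called. The list of 39 ribosome biogenesis genes also holds MYC, a regulator of ribosome genes. Of the 39, 4 were lower (median -0.10), led by MYC itself (-1.29 ± 0.15, adjusted p = 5.42e-05, edgeR) and WDR12 (-0.66 ± 0.12). Mitochondrial ribosomal protein genes, 78 in number, had 2 lower, MRPL34 (-0.53 ± 0.14) and MRPS30 (-0.39 ± 0.12), a share below that of all genes, and a median of -0.09.

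In the empty vector comparison, 19.5% of all genes were called higher and 15.9% lower. Of the 78 mitochondrial ribosomal protein genes, 71 were higher in empty vector than in untreated OPM2 cells (median 0.85), as were 31 of the 39 biogenesis genes (median 0.72) and 8 of the 10 snoRNA hosts (median 0.75). Of the other TOP mRNAs, 7 of 20 were higher and 1 lower (median 0.22).

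IKZF1 knockout in H929 gave low but mostly uncalled values. RPS7, a small subunit protein of the processome that matures its rRNA, had 171.8 and 176.0 CPM in empty vector and 110.9 and 117.2 CPM after knockout. RPS6 had 2230 and 2438 CPM in empty vector and 1826 and 1937 CPM after knockout. The groups did not overlap for either gene. RPS7 alone was called lower (-0.61 ± 0.17, adjusted p = 0.0359, edgeR) and no member was called higher, against 4.61% and 5.94% of all genes. The median was -0.19, against -0.03 over all genes, and 63 members were lower in both knockout libraries than in both empty vector libraries, as were 33.2% of all genes, with 2 above both, against 27% of all genes.

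RPS29 had the lowest value in H929 (-1.04 ± 0.39, adjusted p = 0.119, edgeR), but its empty vector libraries stood at 88.48 and 203.4 CPM and its knockout libraries at 58.67 and 83.54 CPM. RPL39L followed RPS7 at -0.44 ± 0.21, and the highest were RPL26 (0.25 ± 0.18), RPL26L1 (0.23 ± 0.14) and RPL39 (0.06 ± 0.22). The call of RPS7 was lost without empty vector replicate 2 or either knockout library, which left 0 members. Without OPM2 empty vector replicate 1, replicate 2 or both, 18, 17 and 17 members were called. In the fit without both, all 17 were lower (11.3% of all genes), among them RPS7 (-0.60 ± 0.08), RPS6 (-0.30 ± 0.07), RPLP0 (-0.27 ± 0.09) and RPL5 (-0.23 ± 0.07).

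In MM1S the values after IKZF1 knockout lay on the other side of 0. RPL35A, a large subunit protein linked to Diamond-Blackfan anaemia, had 514.0 and 469.9 CPM in empty vector and 700.6 and 754.7 CPM after knockout. RPL22, which binds a viral RNA and is dispensable for growth in many cells, had 180.0 and 174.7 CPM in empty vector and 235.4 and 231.0 CPM after knockout. RPL17 had 16.80 and 16.36 CPM in empty vector and 12.50 and 12.66 CPM after knockout. The groups did not overlap for these 3 genes, which were the ones called: RPL35A higher by 0.56 ± 0.16 (adjusted p = 0.0166), RPL22 higher by 0.39 ± 0.11 (adjusted p = 0.0116) and RPL17 at -0.40 ± 0.14 (adjusted p = 0.0477), all by edgeR.

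These 2 higher and 1 lower stand against 15.6% and 12.7% of all genes, so the share of members called was below that of all genes. The median was 0.15, with RPS29 (-0.40 ± 0.41) and RPL41 (-0.36 ± 0.22) next to RPL17 at the low end and RPS28 (0.43 ± 0.22) toward the high end, below RPL35A. Both knockout libraries were above both empty vector libraries for 45 members and below both for 9, against 37.3% and 35.6% of all genes. Leaving out MM1S empty vector replicate 1 or 2 or knockout library a or b left 1, 0, 1 and 0 calls, whereas without OPM2 empty vector replicate 1, replicate 2 or both there were 30, 28 and 33. In the fit without both, 30 were higher and 3 lower (23.6% and 20.1% of all genes), among the higher RPL13A (0.44 ± 0.09), RPS2 (0.43 ± 0.11), RPLP1 (0.38 ± 0.07) and RPSA (0.29 ± 0.09), and the lower being RPL17 (-0.39 ± 0.11), RPL41 (-0.35 ± 0.12) and RPL10 (-0.25 ± 0.08).

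The related lists were also read in MM1S, where 12.7% of all genes were called lower and 15.6% higher, and the differences between lists were not tested. Of the 39 biogenesis genes, 10 were lower and 1 higher (median -0.29), led by NOP56, a core protein of methylation snoRNPs (-1.05 ± 0.18, adjusted p = 0.000487, edgeR), and RRP12 (-0.74 ± 0.14). Of the 10 snoRNA hosts, 5 were lower (median -0.50), with SNHG1 at -1.64 ± 0.13 and ZFAS1 at -1.15 ± 0.19. Of the 78 mitochondrial ribosomal protein genes 6 were lower and none higher, both shares below those of all genes, with MRPL13 at -1.40 ± 0.13 and MRPS26 at -1.64 ± 0.21.

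The difference of the IKZF1 knockout effect between lines was tested directly. In this and the next paragraph, counts from fits with 1 library left out stand without the share of all genes called. Between H929 and MM1S, 1 member differed, RPL35A, at -0.92 ± 0.23 (H929 minus MM1S, adjusted p = 0.0128, edgeR), with 6.94% of all genes higher and 8.93% lower. Its knockout change was -0.35 ± 0.16 in H929 and 0.56 ± 0.16 in MM1S. RPL13A (-0.69 ± 0.26) and RPS29 (-0.64 ± 0.57) came next, and RPL17 (0.32 ± 0.19), RPL26L1 (0.27 ± 0.21) and RPS27 (0.26 ± 0.35) stood at the other end. The RPL35A call was lost without H929 empty vector replicate 2, MM1S empty vector replicate 2 or MM1S knockout library b, which each left 0 members, and without OPM2 empty vector replicate 1 or 2 there were 40 and 39.

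Against OPM2, 29 members had a higher effect in H929 (6.53% of all genes) and 68 in MM1S (11.8%), and none a lower one. Both tests use the OPM2 empty vector libraries. The highest were RPL36 (1.23 ± 0.34), RPS21 (1.22 ± 0.34) and RPL28 (1.21 ± 0.32) for H929 minus OPM2 and RPL35A (1.67 ± 0.23), RPS2 (1.55 ± 0.31) and RPS18 (1.53 ± 0.25) for MM1S minus OPM2. At the low end, none called, were RPL7L1 (-0.12 ± 0.16), RPS7 (0.32 ± 0.24) and RPL15 (0.33 ± 0.19) for H929 and RPL7L1 (0.05 ± 0.16), RPL17 (0.33 ± 0.20) and RPL26L1 (0.52 ± 0.21) for MM1S. The H929 count was 13 without OPM2 empty vector replicate 1 and 76 without replicate 2, 1 and 0 without H929 empty vector replicate 1 and 2, 1 and 6 without H929 knockout library a and b, and 1 and 4 without OPM2 knockout library a and b. The MM1S count fell to 32 without MM1S empty vector replicate 2.

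Among empty vector cells, H929 held more ribosomal protein mRNA than MM1S. RPL13A, which also takes part in translational control by interferon, had 1876 and 2055 CPM in H929 and 466.2 and 432.5 CPM in MM1S. RPL9 had 97.82 and 103.3 CPM in H929 and 27.01 and 24.73 CPM in MM1S. RPL8 ran the other way, with 1082 and 1198 CPM in H929 and 1489 and 1460 CPM in MM1S. The log2 difference was 2.13 ± 0.19 for RPL13A (adjusted p = 2.41e-07, edgeR), 1.96 ± 0.18 for RPL9 and -0.37 ± 0.20 for RPL8 (adjusted p = 0.114, edgeR).

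In all, 62 members were higher in H929 and none lower, against 32.9% and 30.3% of all genes, with a median of 0.82. Both H929 libraries were above both MM1S libraries for 71 members and below both for 3, against 45.5% and 43.4% of all genes. RPS27 (2.00 ± 0.24) and RPL30 (1.99 ± 0.17) followed RPL13A, and RPL39L (-0.42 ± 0.20), RPL8 and RPS7 (-0.13 ± 0.17) were at the other end. RPS6 stood at 1.54 ± 0.16, RPLP0 at 1.53 ± 0.18, RPL10 at 1.71 ± 0.18 and RPS4X at 0.56 ± 0.14, while RPL41 (-0.07 ± 0.21) and RPL39 (0.07 ± 0.22) were near 0. Without the OPM2 empty vector libraries, 69 were higher and 2 lower, against 37.4% and 35% of all genes. The 2 lower were RPL8 and RPL39L.

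**Figure D5:**
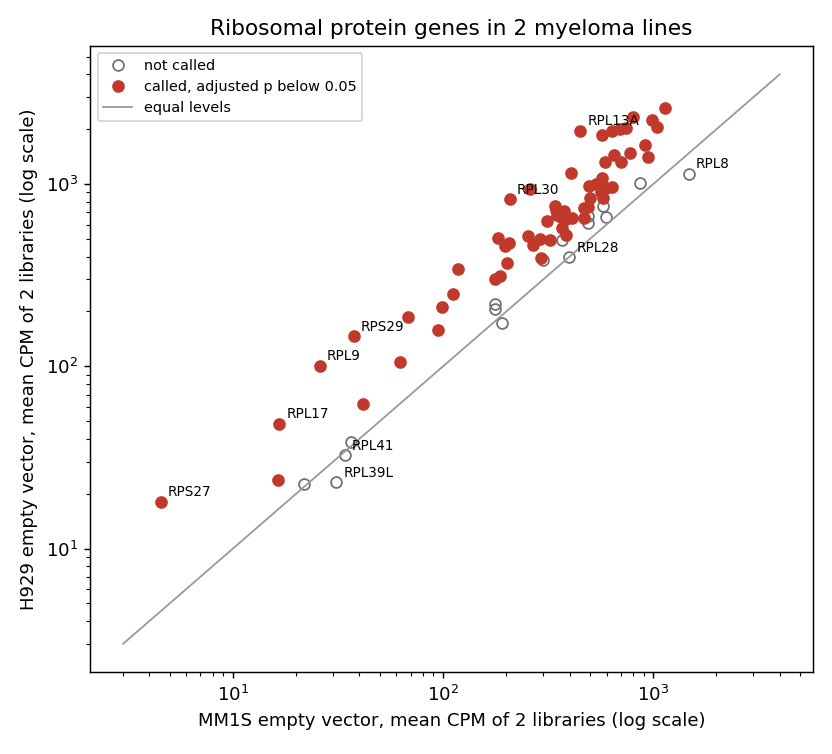
Mean CPM of 2 libraries of each ribosomal protein gene in H929 (vertical) and MM1S (horizontal) empty vector cells, both on log scales, with filled points for called genes and a line of equal levels. Most points lie above the line, RPL13A far above it, and RPL8 and RPL39L lie below it.

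Set beside untreated OPM2 cells, group means were highest in H929 for 68 members and in OPM2 for 6, and lowest in MM1S for 50. The shares of all genes in these orders were not counted. Against the OPM2 empty vector, 9 members were higher and 23 lower in H929 (32.4% and 32.3% of all genes), and 1 was higher and 69 lower in MM1S (32.9% and 34.7%). RPL17 was the highest for H929 (1.23 ± 0.13), with RPS14 (0.65 ± 0.20) and RPL7L1 (0.57 ± 0.11), and RPL28 the lowest (-1.84 ± 0.23), with RPLP2 (-1.23 ± 0.21) and RPS16 (-1.18 ± 0.20). For MM1S the 1 higher member was RPL26L1 (0.44 ± 0.15), with RPL15 (0.29 ± 0.14) and RPL39L (0.02 ± 0.20) next, and the lowest were RPL9 (-2.38 ± 0.19), RPLP2 (-2.16 ± 0.21) and RPL13 (-2.14 ± 0.22). The 32 calls for H929 became 65 without OPM2 empty vector replicate 2, 19 without H929 replicate 1 and 18 without H929 replicate 2.

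Paralog pairs were read as shares of their summed counts. RPL22L1 made 5.75% and 5.09% of the counts of RPL22 and RPL22L1 together in untreated OPM2 cells, 11.65% and 9.35% in empty vector, 7.38% and 8.67% in the IKZF1 knockout, 7.14% and 8.13% in the IKZF3 knockout and 6.94% and 5.23% with lenalidomide. The knockout values lay between those of the controls. In MM1S the share was 8.73% and 8.18% in empty vector and 5.84% and 5.995% after knockout, and in H929 9.68% and 10.96% against 9.45% and 7.81%. RPS27L held 71.8% to 80.1% of its pair in all OPM2 libraries and 89.8% to 94.6% in MM1S, and RPL39L 30.7% to 40.3% in OPM2 and 45.5% to 49.2% in MM1S. These shares compare counts and not levels per length. Under lenalidomide, RPL26L1, RPS27L, RPL7L1 and RPL22L1 (-0.06 ± 0.22) were the 4 highest of the 78 members and RPL39L (-0.15 ± 0.21) the seventh.

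The authors' deposited log2 FPKM values hold each control group as a single merged column. All 78 members were below merged empty vector in both libraries of each OPM2 knockout, with median differences of -0.62 and -0.64, while 41.9% and 42.7% of all genes in that table were. Against merged untreated cells, 44 members were below and 11 above with IKZF1 knockout (median -0.10), as were 37.0% and 40.3% of all genes. With IKZF3 knockout 32 were below and 8 above (median -0.04), as were 36.5% and 42.9% of all genes. Both lenalidomide libraries were below merged untreated cells for 77 members (median -0.33), as for 40.5% of all genes. In H929, 69 were below and 2 above, against 39.9% and 30.7% of all genes, and in MM1S 26 were below and 37 above, against 42.7% and 36.3%. The authors' deposited table gives no replicates of the controls, so it has no test here.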

How the data were processed

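RNA-seq of 18 libraries was read from the authors' deposited raw counts per Entrez gene and from their deposited table of log2 FPKM, in which controls are merged. Subread, featureCounts, limma and the GRCh38 build are named in the submitters' processing notes. Their versions and the handling of reads matching several places are not stated in the labels or files. The 385 rows without a symbol (0.0122% to 0.0276% of a library's counts) were left out. Knockout columns carry other numbers than the titles and were assigned to their group only, as a and b.

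Counts were tested with edgeR 4.0.16 (limma 3.58.1, R 4.3.3): filterByExpr by group, TMM, and 1 robust quasi-likelihood fit of 9 groups with 9 residual degrees of freedom. P-values were adjusted by Benjamini-Hochberg over the genes tested, 14522 in this main fit, and called below 0.05. Each adjusted p in the text is from edgeR's test in the main fit unless another fit is named. The fit without both OPM2 empty vector libraries tested 14392 genes. The SE was taken from the fold change and the F statistic. CPM are counts scaled to effective (TMM) library size. With 2 against 2, the smallest p of an exact permutation test is 0.333, and such tests were left out. Lengths are medians over a gene's coding transcripts in the GENCODE v29 basic set. On data simulated for lenalidomide against untreated OPM2 cells (14362 genes), 12% of genes changed 1.5-fold were recovered, 57.1% at 2-fold, 73.5% at 3-fold and 77.1% at 4-fold, with 4 false calls. The changed genes were drawn at random from all tested genes, and those lost to the low-count filter were left out. These rates are therefore not those of the members.

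Genes named were stalk, disease-linked, paralog and other members set out by role, the 3 highest and 3 lowest members of each comparison and every member of a call list of 5 or fewer; other lists are given by counts with the 2 members of smallest p. A few genes that the rule names are not reported here. Members added beside these as examples were chosen after their values were seen. The members and lists were chosen with earlier results of these data known. Alternatives were DESeq2 1.42.0 (test and size factors), TMM without the members, no low-count filter, members of at least 100 CPM, the compared libraries alone, each library left out in turn and a replicate block. The fits without both OPM2 empty vector libraries were added after seeing the data.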

Additional observations from a re-analysis of the deposited data

Results flagged for a closer look

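The IKZF1 knockout effect differed between cell lines in a direct test of the difference by edgeR. It did so for 1 member between H929 and MM1S, for 29 members between H929 and OPM2 and for 68 members between MM1S and OPM2. The last 2 numbers use the OPM2 empty vector libraries, of which replicate 1 had 8.03% of its counts in ribosomal protein genes and replicate 2 had 5.31%, and the part of this in the difference was not tested. No group had enough libraries to look for a single outlying value.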

How the results depend on the processing

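Each of 15 counts of called members (higher plus lower) was recomputed under every alternative. DESeq2 size factors, TMM without the members and a minimum of 100 CPM moved none by over 1.5 times. The share of all genes called also moved with the fit and is not given beside each such count, here or above. For lenalidomide, 4.59% of all genes were called lower in the main fit and 11.3% without both OPM2 empty vector libraries. A change in a count alone is therefore not particular to the members. Leaving out 1 library of a compared group also leaves that group a single library, with no spread of its own in the test. Leaving out 1 library at a time gave 0 to 18 members for the H929 knockout, 0 to 30 for the MM1S knockout, 68 to 77 for the OPM2 IKZF1 knockout and 59 to 78 for the IKZF3 knockout against empty vector, 0 to 15 and 0 to 9 against untreated cells, and 0 to 1 between the knockouts. It gave 0 to 58 for lenalidomide and 36 to 78 for empty vector against untreated cells. Between empty vector cells it gave 50 to 71 for H929 against MM1S, 18 to 65 for H929 against OPM2 and 57 to 74 for MM1S against OPM2. For the difference of knockout effects it gave 0 to 40 (H929 minus MM1S), 0 to 76 (H929 minus OPM2) and 32 to 76 (MM1S minus OPM2).

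Without the low-count filter the counts were 2 (H929 knockout), 7 (MM1S knockout), 2 (IKZF3 knockout against untreated), 40 (lenalidomide), 6 (H929 minus MM1S) and 61 (H929 minus OPM2). DESeq2 gave 2, 2 and 45 for the H929 knockout, H929 minus MM1S and H929 minus OPM2. With only the compared libraries fitted, the counts were 2 (H929 knockout), 34 (MM1S knockout), 0 and 0 (OPM2 knockouts against empty vector), 11 and 9 (against untreated), 58 (lenalidomide), 0 (empty vector against untreated), 5 and 46 (H929 and MM1S against OPM2 empty vector), and 38, 0 and 5 (H929 minus MM1S, H929 minus OPM2, MM1S minus OPM2). Without both OPM2 empty vector libraries they were 17, 33, 15, 9, 58 and 1 for the H929 knockout, the MM1S knockout, the IKZF1 and IKZF3 knockouts against untreated cells, lenalidomide and the knockouts against each other. Apart from the left-out libraries and genes, the cause of these moves was not tested.

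Of 5261 alternatives for single members, 4541 were called in both fits with the same sign or called in neither, where sign was not compared. In 375 the call was lost, in 337 it was gained and in 8 the sign changed with a call in at least 1 fit. All 8 came from leaving out an OPM2 empty vector library. Without replicate 1 and without replicate 2, the log2 difference of H929 from OPM2 empty vector was 0.32 and -0.36 for RPS6, 0.31 and -0.45 for RPL11, 0.31 and -0.75 for RPS19, 0.42 and -0.50 for RPL41, 0.53 and -0.36 for RPLP1 and 0.58 and -0.25 for RPL13A, and that of MM1S was 0.093 and -0.93 for RPL39 and 0.49 and -0.42 for RPL41.

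With the replicate number as a block in the compared libraries, 68 members were called for lenalidomide, 28 for empty vector against untreated cells, 5 for H929 and 54 for MM1S against OPM2 empty vector and 73 for H929 against MM1S. The deviations of same-numbered libraries correlated at -0.0756 to 0.125 over these 5 comparisons, each with 2 pairs, so the numbers were not taken to pair the libraries. No paired analysis was possible because the knockout columns carry other numbers than their titles, for the knockout comparisons. With 2 libraries a group and depths of 11.8 to 24.19 M counts, changes under 2-fold were often not recovered in simulated data. That holds for genes drawn from all tested genes, and the rate for the members was not simulated.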
